A study of Bos taurus with 8 samples.

Results

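The early response of bovine granulosa cells to luteinizing hormone (LH) was read from the 4 arrays of the series that set RNA taken 6 h after the LH surge against RNA taken 2 h before it. They are 4 of the 8 arrays of the series, chosen by their time label, and the other 4 carry RNA taken 22 h after the surge. Of the 43794 probes on each array, 21790 had a gene symbol, 19789 of those were measured above background and tested, and they named 14138 genes.

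All cells came from Holstein Friesian cows (30 in the study) that had been synchronised with norgestomet implants, estradiol valerate and prostaglandin and stimulated with ovine FSH; no age of the cows was stated. The pre-LH cows were ovariectomised 2 h after the implant came out, without GnRH. In the post-LH cows GnRH induced the surge, and ovaries were removed 8 h after GnRH for the 6 h group and 24 h after it for the 22 h group. Follicles of 6 to 8 mm gave the pre-LH cells and follicles above 8 mm the 6 h cells (the 22 h follicles are called pre-ovulatory), so the time after LH and the size of the follicle cannot be told apart. Scraping of the opened follicles gave the cells, after the oocyte and its cumulus had been drawn off, and the labels' protocol describes them as mostly mural granulosa cells with a few theca cells. The sources used here do not say how many cows made up a biological replicate, so the spread between arrays may cover less than the spread between animals. Each array carried both RNAs, with the post-LH RNA in Cy5 on replicates 1 and 2 and in Cy3 on replicates 3 and 4.

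Granulosa cells line the wall of the follicle and make estradiol under the control of FSH. When the LH surge reaches their receptors, cyclic AMP rises, EGF-like ligands are released, MAP kinases are activated, and the cells stop dividing and change from estradiol to progesterone synthesis. In rodents, the progesterone receptor, prostaglandins and proteases that are induced within hours are needed for the wall to open, and the cells that remain form the corpus luteum.

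Between 79.8% and 85.4% of probes were above background per channel on these arrays. Across tested probes (probes are no independent replicates), ratios of replicates 1 and 2 correlated with r = 0.869, those of replicates 3 and 4 with r = 0.741, and those of arrays with opposite dyes with r from 0.554 to 0.687. All 15 granulosa markers were above background before LH on every array, and 14 of them after LH on every array. Theca markers were above background too (11 of 11 tested), as were markers of endothelium (13 of 13) and stroma (13 of 13). Before LH, so were 17 of 20 leukocyte, 7 of 9 surface epithelium, 8 of 12 oocyte and 5 of 6 erythrocyte markers. Detection alone therefore does not tell the cell type. In RNA of whole samples, fewer cells of a type and less RNA per cell cannot be told apart.

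At 6 h the transcriptome had changed widely. Of the 14138 genes, 3437 (24.3%) changed, 1629 (11.5%) rose and 1808 (12.8%) fell, where "rose" and "fell" stand here and below for an adjusted p under 0.05 in limma (Benjamini-Hochberg over all tested probes). Rises and falls were of like size in the middle of the range, with medians of 0.557 and -0.55 on the log2 scale, but the tails were unequal. At least 4-fold, 87 genes rose and 7 fell, and at least 8-fold 21 rose and 1 fell. A change of at least 2-fold was called for 594 genes (4.2%), 339 (2.4%) up and 255 (1.8%) down. A rise or fall of a named gene is given as the log2 ratio of post-LH over pre-LH RNA on replicates 1 to 4, in that order, and as the fitted log2 change ± SE (n = 4 arrays), whose SE comes from the spread of all 8 arrays around the fit.

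**Figure D1:**
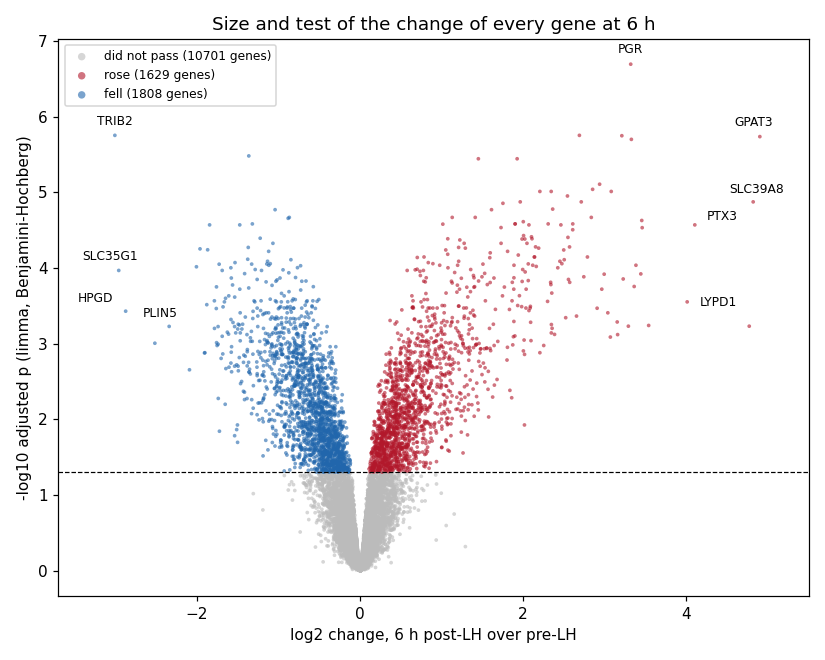
Each point is 1 of 14138 genes, placed by its fitted log2 change at 6 h (x axis) and the -log10 of its adjusted p (y axis), with the dashed line at 0.05. The 1629 rises (red) reach farther from 0 than the 1808 falls (blue), with GPAT3 at 4.90 and TRIB2 at -3.01 as the farthest labelled points on either side.

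The number of calls depended on loess, the correction of dye bias along the intensity scale. When each array was only centred on its median, 85 genes passed, 76 of them up and 9 down, so that 89.4% of the calls were rises against 47.4% after loess; no gene called after loess passed in the opposite direction. The fitted changes of the 3437 genes kept their sign in 100% of cases and had a slope of 0.997 on those after loess, across genes, so fewer passed at about the same size of change. The lists described below shrank with it, from 14 to 3 rises for immediate early transcription factors, from 13 to 0 for enzymes of sterol synthesis and from 16 to 0 falls for replication genes. Leaving out replicate 1 or 2 lowered the number of changed genes to 1967 or 1933, and leaving out replicate 3 or 4 to 2818 or 2411, with the 22 h arrays kept in the fit.

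The 15 largest rises among genes seen in both RNAs on all 4 arrays were led by GPAT3, SLC39A8 and PTX3. GPAT3, which adds the first acyl chain to glycerol phosphate in triglyceride synthesis, stood at 4.86, 5.25, 4.65 and 4.86 and rose by 4.90 ± 0.10 (29.9-fold, adjusted p = 1.84e-06). SLC39A8, an importer of zinc and manganese, stood at 5.24, 5.29, 4.36 and 4.40 and rose by 4.82 ± 0.16 (adjusted p = 1.34e-05). PTX3, a pentraxin of the hyaluronan matrix around the oocyte, stood at 4.69, 4.49, 3.42 and 3.82 and rose by 4.11 ± 0.16 (adjusted p = 2.7e-05). For these 3 genes the lowest of the 4 arrays lay above a log2 ratio of 3, and the 2 arrays with post-LH RNA in Cy5 gave the higher mean.

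Of the other genes RGS2, which switches off G proteins of the Gq class, rose by 3.46 ± 0.14, RCAN1, an inhibitor of calcineurin, by 3.38 ± 0.18, GEM, a small GTPase that restrains calcium channels, by 3.23 ± 0.20, and BAMBI, a TGF-beta pseudoreceptor, by 3.21 ± 0.06. CDKN2B, an inhibitor of the cyclin D kinases, rose by 3.44 ± 0.20, and EGR1, an immediate early transcription factor, by 3.45 ± 0.13. PGR, the progesterone receptor, stood at 3.41, 3.41, 3.22 and 3.24 and rose by 3.32 ± 0.04 (adjusted p = 2.03e-07), the smallest p of the 14138 genes. TFPI2, an inhibitor of serine proteases, rose by 3.36 ± 0.22, FBP1, an enzyme of gluconeogenesis, by 3.29 ± 0.29, SPSB1, a substrate adaptor of ubiquitin ligases, by 3.33 ± 0.07, and LYPD1, a membrane-anchored protein of the Ly6 family, by 4.01 ± 0.29. GFPT2, the first enzyme of hexosamine synthesis, stood at 4.64, 4.46, 1.99 and 1.54 and rose by 3.16 ± 0.29; it was saturated after LH on 2 arrays, so this value and its place among the 15 rest in part on signals at the ceiling, and the arrays split by dye.

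The 15 largest falls were smaller and named other functions. TRIB2, a pseudokinase that scaffolds ubiquitin ligases, stood at -2.86, -2.72, -3.20 and -3.26 and fell by 3.01 ± 0.06 on the log2 scale (adjusted p = 1.77e-06). SLC35G1, a membrane transporter, stood at -3.21, -2.30, -3.20 and -3.13 and fell (-2.96 ± 0.17, adjusted p = 0.000108). HPGD, which inactivates prostaglandins, stood at -3.45, -3.35, -2.55 and -2.15 and fell (-2.88 ± 0.22, adjusted p = 0.000373). Replicates 1 and 2 were lower than replicates 3 and 4 for HPGD and higher for TRIB2, and no array of either gene came near 0.

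The next falls were those of PLIN5, which ties lipid droplets to mitochondria (-2.34 ± 0.21), MGARP, a mitochondrial protein (-2.09 ± 0.26), CLIC3, an intracellular chloride channel protein (-2.01 ± 0.11), RALYL, an RNA-binding protein (-1.96 ± 0.09), and CNIH3, an auxiliary subunit of glutamate receptors (-1.91 ± 0.21). FST, the activin-binding protein follistatin, fell by 1.90 ± 0.21, and WWC1, an activator of the Hippo pathway, fell by 1.88 ± 0.14. PFKM, a phosphofructokinase of glycolysis, ALDH3B1, an aldehyde dehydrogenase, and GATM, which makes the precursor of creatine, had values of -1.87 ± 0.09, -1.85 ± 0.07 and -1.79 ± 0.13. SCARB2, a lysosomal membrane protein (-1.79 ± 0.16), and RBM47, an RNA-binding protein (-1.76 ± 0.14), completed them. All 30 genes kept their call without any 1 of the 8 arrays and under each other setting except median centring, under which GFPT2 and the falls other than TRIB2, SLC35G1, HPGD, PLIN5 and GATM did not pass.

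**Figure D2:**
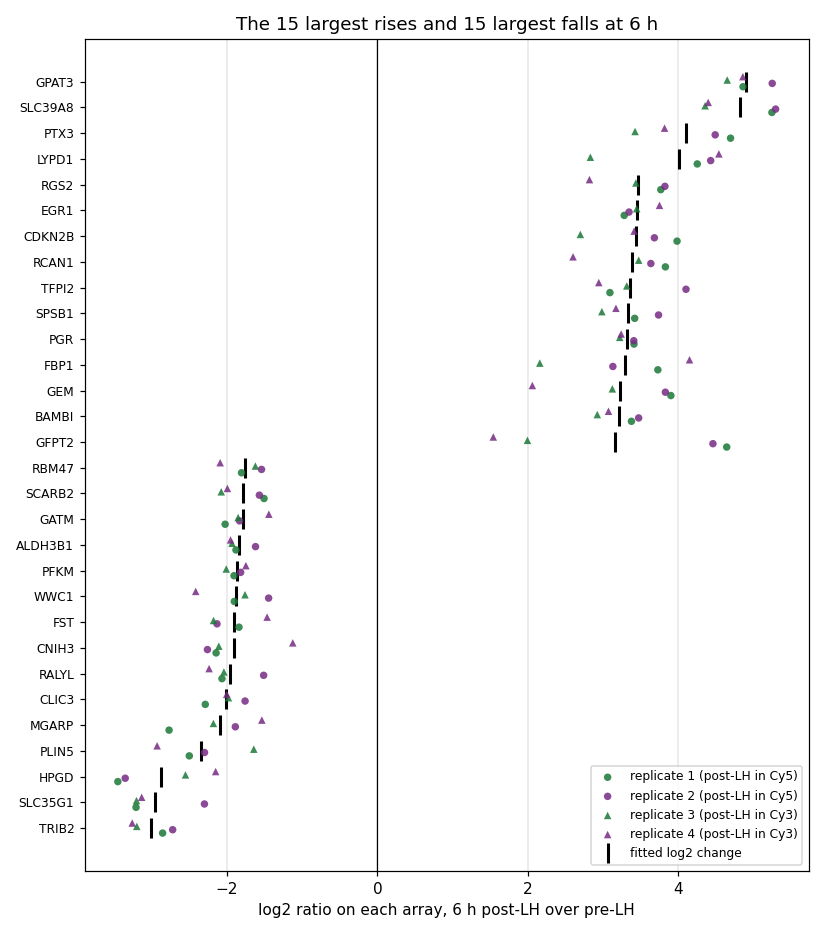
Each symbol is the log2 ratio of 1 array (x axis) for 1 of the 15 largest rises and 15 largest falls (y axis), with circles for post-LH RNA in Cy5, triangles for post-LH RNA in Cy3 and a black bar for the fitted change. All 4 arrays of every gene lie on 1 side of 0, PGR has them closest together and GFPT2 has its circles above 4 and its triangles at or below 1.99.

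Some changes could be given only as a bound, because a spot was saturated or not well above background. Each bound given here equals the fitted fold and carries the same spread between arrays, so single arrays can lie below it. TNFAIP6, which cross-links hyaluronan, stood at 5.82, 5.34, 2.90 and 5.03. Its spot was saturated by the post-LH RNA of every array, which bounds the rise at no less than 27.3-fold (at least 27.3-fold higher; adjusted p = 0.000589), so its place among the largest rises is not known. IGFBP1, a binding protein of insulin-like growth factors, was not well above background before LH on any array. It stood at 1.87, 0.96, 0.43 and 1.90 and was by the fit at least 2.45-fold higher after LH (adjusted p = 0.0104, but 0.0606 without replicate 1). The other 4 genes not well above background before LH, chosen by the size of that bound, were CHGB, HSPB3, RORB and FBXO48, with bounds of 1.59-fold to 1.17-fold. In the other direction SLC14A1, a urea transporter, KCNK18, a potassium channel, and YPEL1 were not well above background after LH, with bounds of 1.35-fold, 1.2-fold and 1.19-fold. Each of these 7 calls was lost without replicate 1, without replicate 2 and without replicate 4, with adjusted p from 0.0642 to 0.179. The call of RORB was also lost without replicate 3 (adjusted p = 0.0562). With the replicate block the adjusted p was 0.0604 for HSPB3, 0.0943 for RORB, 0.0629 for FBXO48, 0.0517 for SLC14A1 and 0.0767 for KCNK18. The call of SLC14A1 also rested on 1 of its 3 probes. Its other probes, of nearly the same dim intensity, did not pass (-0.03 and 0.01, adjusted p = 0.751 and 0.929).

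The other genes are described by lists of related function, in the order of the signal from ligands and receptors to targets. Counts of members are to be read against the 11.5% of all genes that rose and the 12.8% that fell, and medians against the median of all genes, which was -0.0039. Members and lists were chosen with earlier results of these data known. A count above or below these shares is therefore a description and no test of a list.

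**Figure D3:**
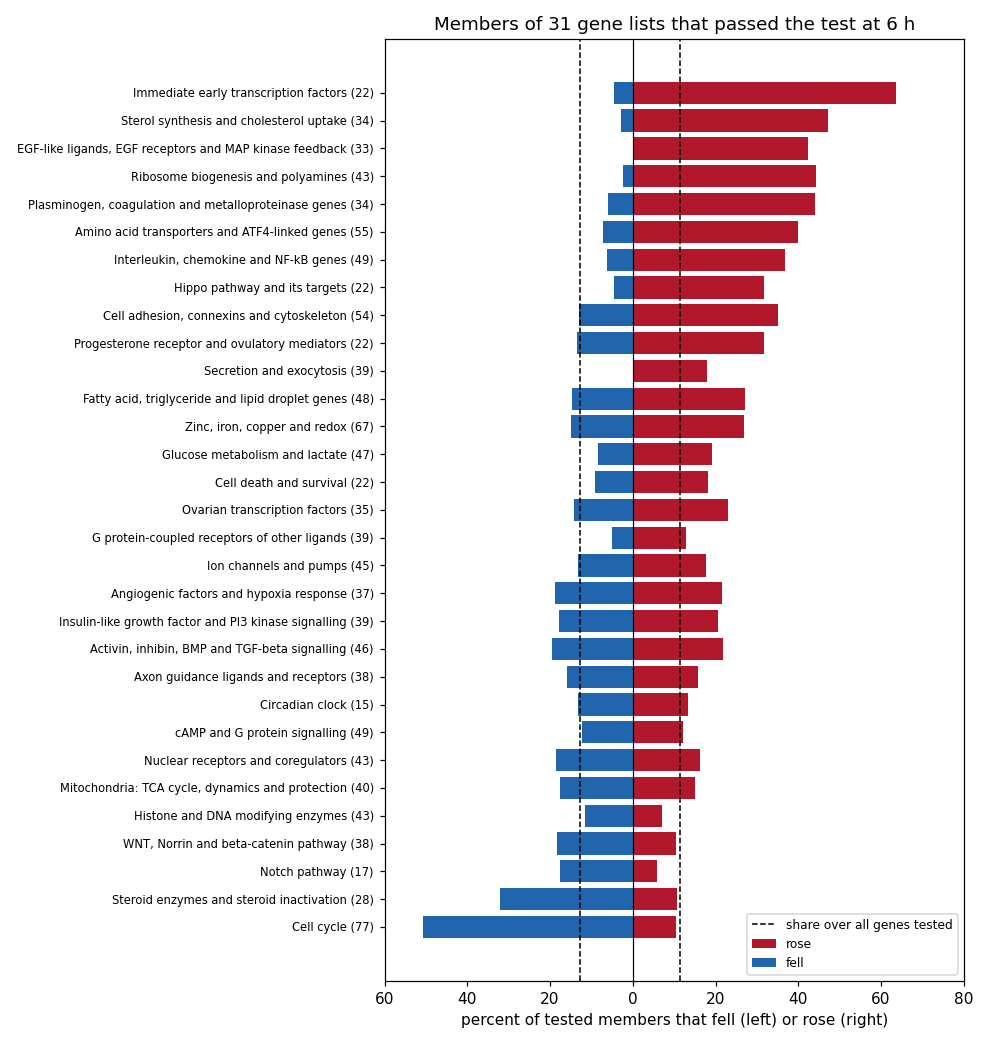
For each of 31 gene lists (number of tested members in brackets), the bar to the right gives the percent of members that rose and the bar to the left the percent that fell at 6 h. The dashed lines mark the shares over all genes, 11.5% and 12.8%; immediate early factors (63.6%) and sterol genes (47.1%) extend farthest to the right, and cell cycle (50.6%) and steroid genes (32.1%) farthest to the left.

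The receptors of the gonadotrophins were lower at 6 h, though for LHCGR by only 1 of its 2 probes. LHCGR, the receptor of LH itself, stood at -0.79, -0.88, -0.32 and -0.78 and fell by 0.69 ± 0.09 (adjusted p = 0.00309), although it was above background after LH on only 3 arrays. Its other probe, of nearly the same dim intensity, did not pass (-0.02, adjusted p = 0.947). FSHR, the receptor of FSH, stood at -0.97, -0.79, -0.95 and -0.95 and fell (-0.91 ± 0.14, adjusted p = 0.00493). Of 49 tested genes of cyclic AMP and G protein signalling, 6 rose and 6 fell, which is close to the shares over all genes. Among them PRKAR1A, a regulatory subunit of protein kinase A, rose by 0.83 ± 0.09, GRK5, a kinase that desensitises receptors, rose by 0.91 ± 0.07, and PKIA, an inhibitor of protein kinase A, fell by 0.97 ± 0.07. The phosphodiesterase PDE4D stood at -0.05, 0.16, 0.04 and 0.02 and did not pass (0.04 ± 0.04, adjusted p = 0.565).

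Of 39 receptors of other ligands 5 rose and 2 fell. P2RY6 (1.27 ± 0.21) and P2RY1 (1.05 ± 0.11), receptors of extracellular nucleotides, rose, and EDNRA, a receptor of endothelins, stood at -1.79, -0.96, -1.52 and -1.41 and fell by 1.42 ± 0.21 (adjusted p = 0.00439). The other rises were GPRC5B, F2RL1 and RAMP3 and the other fall F2R, a thrombin receptor, of which F2RL1 and RAMP3 were named after their values were seen. GPRC5B and F2R were each lost without replicate 1, 2 or 4. The rise of P2RY6 had an adjusted p of 0.0517 without replicate 1, when the list had 2 rises and 1 fall, and the list also had 1 fall without replicates 2 and 4. ADCYAP1, a peptide that rises with LH in rodent granulosa cells, gave -0.06, -0.03, 0.00 and 0.15 and did not pass (0.02 ± 0.04, adjusted p = 0.838).

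EGF-like ligands carry the LH signal onward between follicle cells, and MAP kinases induce their own inhibitors. Of 33 tested genes of this pathway, 14 rose and 0 fell. The ligand AREG stood at 2.56, 1.56, 0.33 and 1.15 and rose by 1.40 ± 0.25 (adjusted p = 0.00913). Of the 17 feedback inhibitors 9 rose, among them PHLDA1, an inhibitor of AKT and receptor signalling, at 2.72, 2.39, 2.02 and 2.89 (2.50 ± 0.13, adjusted p = 7.79e-05), the receptor kinase antagonist SPRY2 (1.93 ± 0.05), and the MAP kinase phosphatase DUSP1 (0.91 ± 0.08). Another phosphatase, DUSP6, rose by 0.48 ± 0.08, but its adjusted p was 0.0558 without replicate 1. Of the 10 receptors and kinases 2 rose, MAP2K1 and MAPK14, named after their values were seen.

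Immediate early transcription factors, which are transcribed within minutes of a signal, were still raised at 6 h. Of 22 tested members 14 rose and 1 fell, with a median of 0.65. FOSL1, a partner of JUN in the factor AP-1, stood at 3.30, 3.49, 1.89 and 3.60 and rose by 3.07 ± 0.29 (adjusted p = 0.00082), and ATF3, a stress-induced factor of the same class, stood at 2.77, 2.74, 1.88 and 2.51 and rose by 2.47 ± 0.13 (adjusted p = 8.79e-05). EGR1 was at 3.28, 3.34, 3.45 and 3.75, so all 4 arrays of these factors were clearly above 0. The exception was MYC, a growth-promoting factor, which fell by 0.71 ± 0.16, with adjusted p of 0.0975, 0.082 and 0.103 without replicates 1, 3 and 4. CREM, a factor of cyclic AMP signalling, rose by 0.19 ± 0.04, and its adjusted p was 0.0519, 0.0984 and 0.0764 without replicates 1, 2 and 4, 0.0893 with the 6 h arrays alone and 0.0968 from the authors' deposited values. Without replicate 1 the list had 8 rises and without replicate 2 it had 9, and it had 0 falls without replicates 1, 3 and 4.

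The progesterone receptor and the genes of ovulation were led by PGR, TNFAIP6 and PTX3, described above. Of 22 tested members 7 rose and 3 fell. ADAMTS1, a protease that cleaves versican and depends on PGR in mice, stood at 1.99, 2.20, 2.07 and 2.29 and rose by 2.14 ± 0.11 (adjusted p = 7.17e-05). HAS2, the hyaluronan synthase, was above background before LH on only 2 arrays, stood at 0.94, 0.71, 0.12 and 0.23 and rose by 0.50 ± 0.08 (adjusted p = 0.00697). SNAP25, a protein of regulated secretion, rose by 1.25 ± 0.12, and the seventh rise was that of IL6, named after its value was seen. ZBTB16, a zinc finger factor, stood at 0.41, 0.16, 0.06 and 0.43 and did not pass (0.27 ± 0.17, adjusted p = 0.377).

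Of 4 tested prostaglandin enzymes 1, HPGD, fell and 0 rose. The synthase PTGS2 was above background on no array before LH and on 3 after it, stood at 0.68, 0.29, 0.11 and 0.00 and did not pass (0.27 ± 0.26, adjusted p = 0.585), although it passed from the authors' deposited values (adjusted p = 0.026). VCAN, the matrix proteoglycan versican, and CITED2, a coactivator-binding protein, had values of -0.50 ± 0.12 and -0.46 ± 0.11, and both calls were lost without replicates 1 and 2, when the list of ovulatory genes had 1 fall. The adjusted p was 0.141, 0.139 and 0.0962 without replicates 1, 2 and 3, 0.0511 without 22 h replicate 3 and 0.0703 with the replicate block for VCAN and 0.13, 0.0757 and 0.111 without replicates 1, 2 and 4 and 0.0505 without the dye term for CITED2.

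Of 28 tested genes of steroid enzymes and steroid inactivation 9 fell and 3 rose. CYP19A1, the aromatase that makes estradiol, stood at -2.47, -1.85, -1.69 and -0.94 and fell by 1.74 ± 0.27 (adjusted p = 0.00531), and HSD17B1, which makes estradiol from estrone, stood at -1.67, -1.40, -1.24 and -1.16 and fell by 1.37 ± 0.16 (adjusted p = 0.00177). HSD3B1, which makes progesterone from pregnenolone, stood at -1.08, -1.68, -1.45 and -1.11 and fell by 1.33 ± 0.21 (adjusted p = 0.00551). HSD17B7, which works in both estradiol and sterol synthesis, rose by 0.82 ± 0.06.

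The first steps of steroid synthesis were less certain. STAR, which brings cholesterol to the inner mitochondrial membrane, stood at -0.33, -0.22, -0.69 and -0.63 and passed as a fall (-0.47 ± 0.11, adjusted p = 0.0285), but of its 3 probes 1 rose and 2 fell, and its adjusted p was 0.0919, 0.0608, 0.11 and 0.116 without replicates 1, 2, 3 and 4. CYP11A1, the side chain cleavage enzyme, stood at -0.51, -0.94, -1.19 and -0.04 and did not pass (-0.67 ± 0.21, adjusted p = 0.0723), although it passed with the replicate block (0.0423) and from the authors' deposited values (0.0104). CYP17A1, the androgen-making enzyme of theca cells, rose by 0.36 ± 0.08 with adjusted p of 0.121, 0.0899 and 0.103 without replicates 2, 3 and 4 and 0.0539 without the dye term. SULT1A1, a sulfotransferase, rose by 0.94 ± 0.19 with adjusted p of 0.0641, 0.0526 and 0.0599 without replicates 1, 2 and 4. Without replicate 2 the list had 1 rise and 5 falls, and without replicate 1 it had 6 falls.

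Nuclear receptors and their coregulators moved both ways, with 7 of 43 up and 8 down. Of the 30 receptors among them 4 rose and 6 fell. FKBP5, from the coregulator part of this list, rose by 0.91 ± 0.17 (adjusted p = 0.0127). Its adjusted p reached 0.075 when 1 array of 6 h was left out. NR4A1, an orphan receptor induced by cyclic AMP, stood at 2.82, 2.95, 2.74 and 1.57 and rose by 2.52 ± 0.21 (adjusted p = 0.000455), with replicate 4 lower than the others and 1 spot saturated. PPARG, a receptor of fatty acids that LH lowers in rodent granulosa cells, stood at -1.28, -0.92, -1.47 and -1.03 and fell by 1.17 ± 0.11 (adjusted p = 0.000886), while its relative PPARD rose by 0.77 ± 0.11. THRA, a thyroid hormone receptor (-1.23 ± 0.05), and PGRMC1, a membrane protein that takes part in progesterone action (-1.14 ± 0.11), fell. NR5A2, a factor of ovulation in mice, fell by 0.62 ± 0.11, with adjusted p of 0.0533 without replicate 4 and 0.197 from the median over probes. ESR2, the main estrogen receptor of granulosa cells, stood at -0.01, 0.07, -0.02 and -0.23 and did not pass (-0.04 ± 0.26, adjusted p = 0.948), and NRIP1, a corepressor needed for ovulation in mice, rose by 0.37 ± 0.04. The list had 3 rises without replicate 2, and 4 rises and 5 falls without replicate 4.

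In the activin, inhibin, BMP and TGF-beta pathways, which hold granulosa cells in their follicular state, 10 of 46 members rose and 9 fell. ACVR1B, a type I activin receptor, stood at 2.19, 2.17, 1.91 and 2.02 and rose by 2.07 ± 0.08 (adjusted p = 2.7e-05), and FSTL3, an activin-binding protein, rose by 2.34 ± 0.15 while FST fell. SMAD2, which carries the activin signal to the nucleus, fell by 0.96 ± 0.08. TGFBR3, the coreceptor betaglycan, fell by 0.96 ± 0.21, with adjusted p of 0.093, 0.0865, 0.0588 and 0.1 without replicates 1, 2, 3 and 4 and 0.146 from the median over probes. The list had 6 rises without replicate 2, and 3, 4 and 6 falls without replicates 1, 2 and 4.

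INHA and INHBA, subunits of inhibin and activin, were each saturated before LH on 2 arrays, where a higher pre-LH level could not be read. Their values were -0.23 ± 0.26 and -0.11 ± 0.34 and did not pass (adjusted p = 0.646 and 0.893). The BMP antagonist GREM1 (0.01 ± 0.04, adjusted p = 0.879) and SMAD3 (-0.04 ± 0.03, adjusted p = 0.39) did not pass. INHBB stood at -1.52, -0.94, -0.98 and -0.02 and AMH, a hormone of growing follicles, at -0.72, -0.55, -0.67 and -0.21. Both passed as falls, but the adjusted p was 0.194, 0.167 and 0.148 without replicates 1, 2 and 3, 0.063, 0.0754 and 0.0514 without 22 h replicates 2, 3 and 4, 0.0921 with the replicate block and 0.0524 with no filter on dim probes for INHBB (-0.86 ± 0.23) and 0.121, 0.114 and 0.0896 without replicates 1, 2 and 3 for AMH (-0.54 ± 0.12).

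Of the WNT pathway 4 of 38 members rose and 7 fell. NDP, the ligand Norrin of Frizzled receptors, stood at 3.81, 4.50, 3.46 and 2.40 and rose by 3.54 ± 0.31 (adjusted p = 0.000576), with the pre-LH RNA above background on 3 arrays. The receptors ROR2 (-1.05 ± 0.11) and FZD1 (-0.83 ± 0.11) fell. The other rises were those of the inhibitor WIF1, the repressor TCF7L1 and SFRP4, the last named after its value was seen. The adjusted p was 0.0813, 0.0814 and 0.0635 without replicates 1, 2 and 4 for WIF1 (0.30 ± 0.06) and 0.0682 and 0.088 without replicates 1 and 2, 0.0521 with the 6 h arrays alone and 0.208 from the median over probes for TCF7L1 (0.60 ± 0.12). LRP8, a receptor of reelin, fell by 1.11 ± 0.20 with adjusted p of 0.056 and 0.064 without replicates 1 and 2. The list had 2, 1 and 2 rises without replicates 1, 2 and 4, and 2, 2 and 3 falls.

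Of the Notch pathway 1 of 17 tested members rose and 3 fell. The rise was that of NUMB (0.22 ± 0.05), an inhibitor of the receptor, and the falls were those of the coactivator MAML2 (-0.93 ± 0.18), the target HEY2 (-0.83 ± 0.15) and the ligand JAG1 (-0.63 ± 0.07), for which 1 of 3 probes passed. None of these calls held in every setting: the adjusted p was 0.143, 0.111 and 0.116 without replicates 1, 2 and 4 and 0.0528 with the 6 h arrays alone for NUMB, 0.0723 and 0.0611 without replicates 1 and 4 for MAML2, 0.0614 and 0.0536 without replicates 1 and 2 for HEY2 and 0.262 from the median over probes for JAG1. The list had 1 fall without replicate 1 and 0 rises without replicates 1, 2 and 4. HES1, a main target of the pathway, stood at -0.52, -0.48, 0.07 and 0.25 and did not pass (-0.17 ± 0.06, adjusted p = 0.0909), except without replicate 4 (0.0278), with no background correction (0.0198) and with background from negative controls (0.0228).

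In the Hippo pathway, which senses tension and cell contact, 7 of 22 members rose and 1 fell. WWC1, given above among the largest falls as an activator of this pathway, was not on the list. ANKRD1, a target of its coactivators, stood at 2.41, 1.88, 1.40 and 0.60 and rose by 1.57 ± 0.20 (adjusted p = 0.00233), and the coactivator WWTR1 stood at 0.72, 0.96, 0.29 and 0.32 and rose by 0.57 ± 0.08 (adjusted p = 0.00285). TEAD4, their partner on DNA, rose by 0.64 ± 0.12, and LATS2, the kinase that restrains them, fell by 0.74 ± 0.16; the adjusted p was 0.0638 and 0.0578 without replicates 1 and 2 for TEAD4 and 0.108, 0.0619 and 0.0893 without replicates 1, 3 and 4 for LATS2. CCN2, another target, stood at 0.47, 0.97, 0.29 and 0.08 and did not pass (0.45 ± 0.22, adjusted p = 0.228), except with the 6 h arrays alone (0.0383) and without replicate 1 of 22 h (0.0137). The list had 4 rises without replicate 2, and 0 falls without replicates 1 and 4, while 2 fell without replicate 1 of 22 h.

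Genes of insulin-like growth factor and PI3 kinase signalling moved both ways, with 8 of 39 members up and 7 down. TRIB1, a pseudokinase, stood at 2.27, 2.74, 2.60 and 2.09 and rose by 2.42 ± 0.14 (adjusted p = 9.96e-05), against the fall of its relative TRIB2. SGK1, a kinase of this pathway, stood at 1.73, 1.56, 1.82 and 1.81 and rose by 1.73 ± 0.07 (adjusted p = 2.93e-05), and DDIT4, an inhibitor of mTOR, rose by 1.56 ± 0.10. FOXO1, a factor of growing granulosa cells that this pathway inactivates, stood at -0.94, -0.76, -0.61 and -0.96 and fell by 0.82 ± 0.07 (adjusted p = 0.000631). IGFBP5 did not pass (0.06 ± 0.04, adjusted p = 0.332). Without replicate 1 the list had 4 rises and 4 falls, and without replicate 2 it had 5 and 4.

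Of 49 tested interleukin, chemokine and NF-kB genes 18 rose and 3 fell. IL33, a cytokine stored in the nucleus, stood at 2.84, 3.70, 3.05 and 2.56 and rose by 3.04 ± 0.24 (adjusted p = 0.000392). IL4R, a receptor of interleukin 4, stood at 2.43, 2.52, 2.15 and 2.35 and rose by 2.36 ± 0.08 (adjusted p = 1.67e-05), and TNFRSF12A, the receptor of TWEAK, rose by 2.35 ± 0.22. All arrays of these genes were above 0. IL6ST, the shared receptor chain of the interleukin 6 family, rose by 0.43 ± 0.07, with adjusted p of 0.0572 without replicate 2. NFKBIA, an inhibitor of NF-kB, rose by 0.46 ± 0.10, with adjusted p of 0.102, 0.102 and 0.0641 without replicates 1, 2 and 3, 0.0555 with the 6 h arrays alone and 0.0928 from the authors' deposited values.

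The chemokine CXCL14 stood at -2.04, -1.53, -1.94 and -1.47 and fell by 1.74 ± 0.15 (adjusted p = 0.000596). The other 2 falls of the inflammatory list, CXCL12 (-0.68 ± 0.15) and IL6R (-0.51 ± 0.11), were lost without replicates 1 and 2, when the list had 1 fall, and the adjusted p was 0.11 and 0.0794 without replicates 1 and 2 and 0.0706 with the 6 h arrays alone for CXCL12 and 0.101, 0.0825 and 0.0628 without replicates 1, 2 and 4 for IL6R. CXCR4, the receptor of CXCL12, stood at -0.79, 0.02, -0.95 and -1.20 and did not pass (-0.73 ± 0.21, adjusted p = 0.0559), though it passed in 7 other settings (adjusted p from 0.0154 to 0.0424). SOCS3, a feedback inhibitor of cytokine signalling, stood at -0.02, -0.01, -0.01 and 0.23 and did not pass (0.05 ± 0.06, adjusted p = 0.685).

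Genes of proteolysis rose together with inhibitors of it. Of 34 tested genes of the plasminogen system, coagulation and metalloproteinases 15 rose and 2 fell, with a median of 0.33. PLAT, the tissue plasminogen activator, stood at 2.43, 2.01, 1.89 and 2.29 and rose by 2.15 ± 0.10 (adjusted p = 5.27e-05). TIMP1, an inhibitor of metalloproteinases, stood at 2.78, 2.69, 2.17 and 2.63 and rose by 2.57 ± 0.12 (adjusted p = 5.28e-05). THBS1, an adhesive and antiangiogenic matrix protein, rose by 2.21 ± 0.24. All 4 arrays of PLAT, TIMP1 and TFPI2 were above 0.

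SERPINE2, a protease inhibitor of the granulosa cell surface, was saturated before LH on 3 arrays and did not pass (-0.19 ± 0.16, adjusted p = 0.54). S100A10, which holds plasminogen at the cell surface, fell by 0.78 ± 0.09. SERPINA5, an inhibitor of activated protein C, fell by 0.41 ± 0.09, with adjusted p of 0.0697 and 0.0716 without replicates 1 and 2. Without replicate 2 the protease list had 9 rises, against 15 with all arrays, and without replicates 1 and 2 it had 1 fall.

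Of 54 genes of cell shape and contact 19 rose and 7 fell. CLDN1, a tight junction protein, stood at 2.58, 2.46, 1.85 and 1.76 and rose by 2.16 ± 0.12 (adjusted p = 9.56e-05), and CDH2, the N-cadherin of granulosa cells, stood at 1.83, 2.23, 1.31 and 1.26 and rose by 1.66 ± 0.13 (adjusted p = 0.000353). The keratins KRT8 (1.50 ± 0.19) and KRT18 (1.11 ± 0.14), which pair in filaments, rose together, as did the small GTPases RHOB (1.59 ± 0.14) and RND3 (1.20 ± 0.10), which shape the actin cytoskeleton. The tight junction proteins OCLN (-0.97 ± 0.14, above background after LH on 3 arrays) and CLDN5 (-0.75 ± 0.10) fell, as did STMN1, a destabiliser of microtubules (-0.83 ± 0.09). GJA1, the connexin that couples granulosa cells, stood at 0.63, 0.78, 0.84 and 0.59 and rose by 0.71 ± 0.13, with adjusted p of 0.059 and 0.0627 without replicates 1 and 2.

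Of 38 axon guidance genes, whose products also steer other cells, 6 rose and 6 fell. The neurotrophin BDNF (1.02 ± 0.15), the netrin receptor UNC5B (1.02 ± 0.11) and the semaphorin SEMA6A (0.97 ± 0.13) rose. The related SEMA6D stood at -1.74, -1.50, -1.42 and -1.50 and fell by 1.54 ± 0.11 (adjusted p = 0.000243), and the Slit receptor ROBO1 fell by 0.95 ± 0.08. ROBO2 fell by 1.19 ± 0.29 with adjusted p of 0.114, 0.108, 0.117 and 0.0706 without replicates 1, 2, 3 and 4 and 0.0993 without the dye term, and EFNB2, an ephrin, did not pass (0.00 ± 0.04, adjusted p = 0.986). The list had 3 rises without replicate 2 and 3 falls without replicates 1, 2 and 4.

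Angiogenic factors were split as well, with 8 of 37 up and 7 down. VEGFA, the main growth factor of vessels, stood at 0.59, 0.35, 0.17 and 0.56 and rose by 0.42 ± 0.07 (adjusted p = 0.00737). FGF2, a growth factor of vessels and granulosa cells, stood at 1.91, 1.81, 1.35 and 1.85 and rose by 1.73 ± 0.08 (adjusted p = 4.73e-05), and so did its receptor FGFR1 (1.77 ± 0.11). PGF, the placental growth factor (-1.05 ± 0.13), and ANGPTL2, an angiopoietin-like protein (-1.07 ± 0.12), fell. The hypoxia-induced NDRG1 rose by 1.43 ± 0.20, ADM, the vasodilator adrenomedullin, did not pass (0.02 ± 0.06, adjusted p = 0.864), and LOX, which cross-links collagen, fell by 1.24 ± 0.22 with adjusted p of 0.0598 without replicate 1. Without replicate 1 the list had 4 falls.

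Cholesterol is the starting material of progesterone, and RNAs of enzymes along the pathway of its synthesis rose. Of 18 tested enzymes 13 rose and 0 fell, with a median of 0.76. IDI1, which isomerises the isoprene unit, stood at 1.32, 1.20, 1.45 and 1.68 and rose by 1.41 ± 0.05 (adjusted p = 2.15e-05), and CYP51A1, which removes a methyl group from lanosterol, stood at 1.29, 1.17, 1.38 and 1.22 and rose by 1.26 ± 0.13 (adjusted p = 0.000996). HMGCS1, which makes HMG-CoA, rose by 1.00 ± 0.09, but 1 of its 4 probes passed and the median over probes did not (adjusted p = 0.346 from the median over probes). SQLE, the squalene epoxidase, rose by 0.55 ± 0.15, with adjusted p of 0.184, 0.179 and 0.153 without replicates 1, 2 and 3, 0.0544, 0.0666 and 0.063 without 22 h replicates 2, 3 and 4, 0.0538 with the replicate block, 0.0563 with no background correction and 0.072 from the authors' deposited values. With 1 array left out, 11 or 12 of the enzymes rose.

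**Figure D4:**
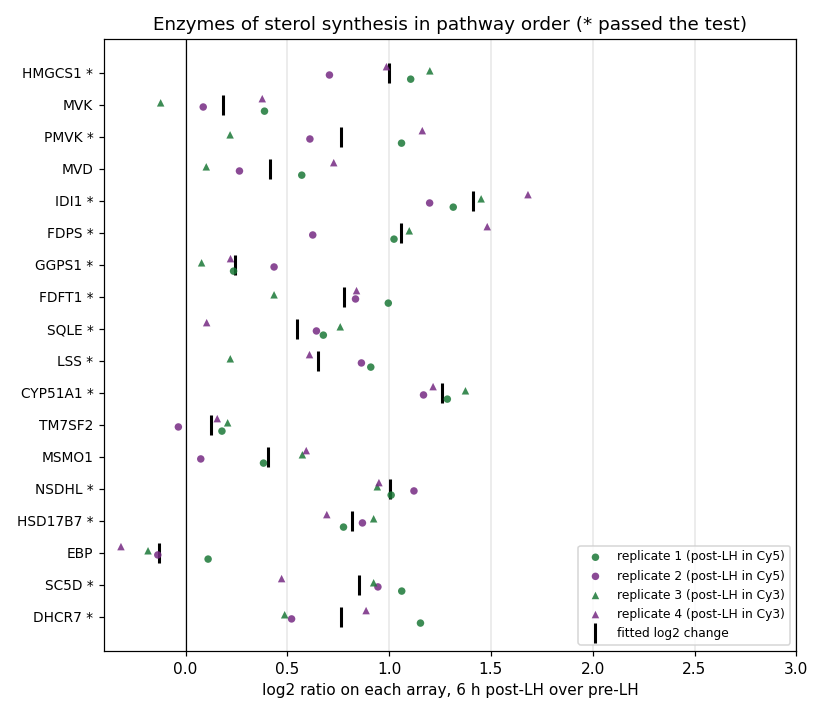
Log2 ratios of the 4 arrays (x axis) for the 18 tested enzymes of sterol synthesis, from the start of the pathway at the top to its end at the bottom, with circles for post-LH RNA in Cy5, triangles for Cy3, a black bar for the fitted change and an asterisk where the test was passed. The 13 enzymes that rose have all 4 arrays above 0, and EBP (-0.13, named after its value was seen) is the 1 enzyme with a fitted value below 0.

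RNAs for uptake and release of cholesterol changed at single points. SCARB1, which brings HDL cholesterol into the cell, stood at 2.29, 1.86, 1.68 and 2.52 and rose by 2.09 ± 0.16 (adjusted p = 0.000339). INSIG1, a brake on sterol synthesis, stood at 0.43, 0.42, 0.24 and 0.52 and rose by 0.40 ± 0.07 (adjusted p = 0.00706). Its dimmer probes rose by 0.62 (adjusted p = 0.0109) and 1.56 (adjusted p = 0.00038), so the size of its rise depended on the probe. LIPA, the lysosomal lipase that frees cholesterol from esters, fell by 0.67 ± 0.10, and ABCA1, which exports cholesterol, did not pass (-0.07 ± 0.03, adjusted p = 0.164). Of the 16 tested genes of uptake, sensing and export 3 rose, the third being SOAT1, named after its value was seen, and 1 fell, which together with synthesis gave 16 rises and 1 fall among 34, or 3 falls without replicate 1 of 22 h.

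Fatty acid and triglyceride genes changed on both sides of the droplet, with 13 of 48 up and 7 down. Of 25 tested genes of fatty acid and triglyceride synthesis 11 rose and 2 fell. Of 23 genes of storage, lipolysis and oxidation 2 rose and 5 fell, among them CIDEB (up) and CPT2 and ACADL (down), and FASN and GPAM were the 2 falls among the synthesis genes, these 5 named after their values were seen. Beside GPAT3, DGAT2, which adds the last acyl chain, stood at 1.62, 1.68, 1.21 and 1.29 and rose by 1.45 ± 0.03 (adjusted p = 3.61e-06), and PLIN2, the main coat protein of lipid droplets, stood at 2.81, 2.81, 2.46 and 2.68 and rose by 2.69 ± 0.05 (adjusted p = 1.77e-06). PLIN5 stood at -2.50, -2.30, -1.64 and -2.93. PNPLA2, the lipase that opens triglyceride (-0.81 ± 0.13), and ACADM, an enzyme of fatty acid oxidation (-0.96 ± 0.15), fell. Without replicate 2 the whole list had 8 rises against 13, and the synthesis genes had 7 without replicate 1 and 7 without replicate 2. The falls among synthesis genes were 1 without replicates 1, 2 and 4, and the rises among storage, lipolysis and oxidation genes 1 without replicates 2 and 4.

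Of 47 tested genes of glucose and lactate 9 rose and 4 fell. SLC2A1, the glucose transporter GLUT1, stood at 1.67, 1.41, 0.93 and 1.70 and rose by 1.43 ± 0.14 (adjusted p = 0.00102), and HK2, a hexokinase, stood at 3.30, 3.59, 2.09 and 2.00 and rose by 2.74 ± 0.16 (adjusted p = 0.000131). PFKM stood at -1.91, -1.82, -2.01 and -1.75. PFKFB2, which makes an activator of phosphofructokinase, fell by 0.89 ± 0.10, and SLC16A3, an exporter of lactate, fell by 0.88 ± 0.16 with adjusted p of 0.0507 without replicate 2. PFKFB3, a relative of PFKFB2, stood at 1.77, 1.85, 1.56 and -0.14 and rose by 1.26 ± 0.30, with adjusted p of 0.112, 0.121 and 0.0905 without replicates 1, 2 and 3 and 0.0642 without the dye term. The fourth fall was that of SLC16A7, named after its value was seen. The list had 2 falls without replicate 2 and 7 without replicate 1 of 22 h.

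Of 40 genes of mitochondria and linked metabolism 6 rose and 7 fell. SUCLA2, a subunit of succinyl-CoA ligase, stood at 2.08, 2.04, 2.19 and 1.94 and rose by 2.06 ± 0.11 (adjusted p = 8.85e-05), and GOT1, a cytosolic aminotransferase on this list, rose by 1.24 ± 0.08. IDH3A, a subunit of isocitrate dehydrogenase, stood at -1.29, -1.16, -0.89 and -0.86 and fell by 1.05 ± 0.09 (adjusted p = 0.000466), and FH, the fumarase, fell by 0.76 ± 0.10. SOD2, the mitochondrial superoxide dismutase, stood at 1.06, 1.16, 1.16 and 1.39 and rose by 1.19 ± 0.12 (adjusted p = 0.00106). Without replicate 1 the list had 3 rises, and without replicates 2 and 3 it had 3 falls.

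Amino acid transporters and genes linked to the factor ATF4 and to protein folding rose, 22 of 55, against 4 that fell. SLC7A5, the large neutral amino acid transporter, stood at 2.03, 2.18, 1.48 and 1.91 and rose by 1.90 ± 0.18 (adjusted p = 0.000792), and SLC1A5, a glutamine transporter, rose by 1.11 ± 0.12. HSPA5, the chaperone BiP of the endoplasmic reticulum, stood at 1.28, 0.66, 1.85 and 0.92 and rose by 1.18 ± 0.20 (adjusted p = 0.0074). The glutamate transporter SLC1A3 stood at -1.94, -1.65, -1.58 and -1.74 and fell by 1.73 ± 0.09 (adjusted p = 8.93e-05). PHGDH (-1.10 ± 0.12) and PSAT1 (-1.48 ± 0.17), the first enzymes of serine synthesis, fell together, and the fourth fall was that of ALDH18A1, named after its value was seen. The rises were 13 without replicate 1 and 12 without replicate 2, while the number that fell was 4 without any 1 of the 6 h arrays.

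Metals and redox gave 18 rises and 10 falls among 67 genes. Of 35 metal genes 12 rose, led by SLC39A8, and MT2A, a metallothionein that binds zinc, stood at 2.43, 2.26, 1.39 and 2.28 and rose by 2.09 ± 0.18 (adjusted p = 0.000523). SRXN1, which repairs oxidised peroxiredoxins, stood at 3.22, 2.77, 3.06 and 2.81 and rose by 2.96 ± 0.19 (adjusted p = 0.000191). CAT, the catalase that breaks down hydrogen peroxide, stood at -0.95, -0.91, -1.37 and -0.98 and fell by 1.05 ± 0.12 (adjusted p = 0.00145), and GPX8, a peroxidase of the endoplasmic reticulum (-0.81 ± 0.07), and TXNIP, an inhibitor of thioredoxin (-0.78 ± 0.10), fell. PRDX3, a mitochondrial peroxiredoxin, fell by 0.87 ± 0.15 with adjusted p of 0.0523 without replicate 2, and SLC39A14, a zinc importer, rose by 0.70 ± 0.16 with adjusted p of 0.119, 0.114 and 0.0707 without replicates 1, 2 and 3 and 0.0506 with the replicate block. The whole list had 10 rises without replicate 1 and 10 without replicate 2, and 6 falls without replicate 2; the metal genes had 7, 7 and 8 rises without replicates 1, 2 and 3.

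The cell cycle was the list with the most falls, 39 of 77, against 8 rises and a median of -0.50. Of 26 tested replication genes 16 fell, led by RRM2, a subunit of ribonucleotide reductase, which stood at -1.48, -1.19, -0.54 and -1.07 (-1.07 ± 0.12, adjusted p = 0.00144). Of 26 mitotic genes 16 fell, led by NUSAP1, a spindle protein, which stood at -1.33, -1.19, -1.60 and -1.60 (-1.43 ± 0.21, adjusted p = 0.00427). The replication count was 12 to 14 with any 1 of the 6 h arrays left out, but the mitotic count was 5, 6, 5 and 6 without replicates 1 to 4, and that of the whole list was 23, 24 and 25 without replicates 1, 2 and 3. TOP2A, a topoisomerase of dividing cells, stood at -0.52, -0.35, -0.28 and -0.30 and did not pass (-0.36 ± 0.11, adjusted p = 0.0583), although it passed in 7 other settings.

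Of 25 cyclins, kinase inhibitors and E2F genes 6 rose and 7 fell, and the rises included inhibitors. CDKN2B stood at 3.98, 3.68, 2.70 and 3.41. CDKN1A, the kinase inhibitor p21, stood at 1.76, 1.00, 0.73 and 1.63 and rose by 1.28 ± 0.18 (adjusted p = 0.00372), and BTG2, an antiproliferative protein, rose by 1.96 ± 0.06. Among the 26 mitotic genes the 1 rise was that of PLK2, a kinase that is induced by stress and restrains division. PLK2 stood at 2.08, 2.31, 2.40 and 1.98 and rose by 2.19 ± 0.10 (adjusted p = 5.48e-05). CCND3, a D-type cyclin, fell by 1.25 ± 0.20, and CCND2, the cyclin that FSH raises in rodent granulosa cells, stood at 0.50, 0.45, -0.20 and 1.04 and did not pass (0.45 ± 0.20, adjusted p = 0.186), except with the replicate block (0.0386) and without replicate 3 (0.0483). The cell cycle list had 5 rises without replicate 1 and 5 without replicate 2.

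Of 22 cell death genes 4 rose and 2 fell. MCL1, a survival protein of the BCL2 family, stood at 1.80, 1.61, 1.76 and 1.84 and rose by 1.75 ± 0.06 (adjusted p = 1.4e-05), and APAF1, the core of the apoptosome, stood at 1.07, 1.03, 0.70 and 0.77 and rose by 0.89 ± 0.05 (adjusted p = 8.79e-05). The other rises were those of BIRC3 and CYCS, the second named after its value was seen, and BIRC3 had adjusted p of 0.0725, 0.126, 0.0689 and 0.116 without replicates 1, 2, 3 and 4, 0.0524 and 0.0533 without 22 h replicates 3 and 4 and 0.152 without the dye term. The falls were those of BCL2A1 (-0.32 ± 0.07), with adjusted p of 0.085, 0.108 and 0.0711 without replicates 1, 2 and 4, and BAX (-0.31 ± 0.05), with adjusted p of 0.223 without the dye term. The list had 2 rises without replicate 2 and 1 fall without replicates 1, 2 and 4.

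RNAs of ribosome biogenesis genes rose by small steps. Of 43 nucleolar and polyamine genes 19 rose and 1 fell, with a median of 0.33. RRP12, which takes part in ribosome export, stood at 1.04, 1.06, 0.75 and 1.04 and rose by 0.97 ± 0.14 (adjusted p = 0.00375), and NOP14, which takes part in making the small subunit, rose by 0.79 ± 0.12. SAT1, which acetylates polyamines for export, stood at 2.59, 2.22, 2.87 and 2.75 and rose by 2.61 ± 0.11 (adjusted p = 3.13e-05), and ODC1, the first enzyme of their synthesis, did not pass (0.01 ± 0.16, adjusted p = 0.979). UTP14A, a nucleolar protein, was the 1 gene that fell (-0.35 ± 0.07), with adjusted p of 0.0525 and 0.0911 without replicates 1 and 2 and 0.0551 with the 6 h arrays alone. Without replicate 1 the list had 10 rises, and without replicates 1 and 2 it had 0 falls.

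Secretion genes gave 7 rises and 0 falls among 39, so 17.9% of them changed, against 24.3% of all genes. STX11, a syntaxin of regulated secretion, stood at 1.37, 1.30, 0.50 and 1.28 and rose by 1.11 ± 0.13 (adjusted p = 0.00195), and RAB27A, which guides secretory vesicles, rose by 1.24 ± 0.22 with adjusted p of 0.0528 and 0.0579 without replicates 1 and 2. Without replicates 1 and 2 of 22 h, 3 and 1 of the list fell. Among 45 ion channels and pumps 8 rose and 6 fell, with SLC4A7, a bicarbonate transporter (1.51 ± 0.18), ATP2A2, the calcium pump of the endoplasmic reticulum (1.09 ± 0.11), and ITPR1, its calcium release channel (1.07 ± 0.09), as the largest rises. The falls KCNAB1, a potassium channel subunit (-0.74 ± 0.11, above background after LH on 3 arrays), and KCNN2, a potassium channel (-0.46 ± 0.08), held in every setting but median centring. That list had 5 rises without replicate 2 and 3 falls without replicates 1 and 2.

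Of 35 transcription factors of the ovary 8 rose and 5 fell. SOX4 stood at 2.27, 2.28, 1.77 and 3.22 and rose by 2.39 ± 0.22 (adjusted p = 0.000756), and the homeobox factor MEIS1 (1.08 ± 0.06) and SNAI2, a factor of epithelial to mesenchymal change (0.93 ± 0.14), rose. TCF21, a factor of stromal and theca cells, stood at -1.05, -0.64, -1.42 and -1.80 and fell by 1.23 ± 0.16 (adjusted p = 0.00306). GATA4, a factor of steroid synthesis, stood at -0.13, -0.14, -0.53 and -0.49 and fell by 0.32 ± 0.07, with adjusted p of 0.0546, 0.0572, 0.0979 and 0.105 without replicates 1, 2, 3 and 4 and 0.0644 with the replicate block. FOXL2, which maintains the granulosa cell fate, stood at -0.04, -0.11, -0.01 and -0.34 and did not pass (-0.12 ± 0.06, adjusted p = 0.221), except without replicate 3 (0.0393), and RUNX1 did not pass (0.02 ± 0.03, adjusted p = 0.79). NFIB and MEIS2 were the other falls beside FOXO1, and MEIS2 was named after its value was seen, while NFIB had adjusted p of 0.0501 without replicate 3. The list had 5 rises without replicates 1, 2 and 4.

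Of 15 clock genes 2 rose and 2 fell, and 1 fell without replicates 1, 2 and 4. NFIL3, a repressor of clock output, stood at 0.91, 0.53, 1.03 and 0.79 and rose by 0.81 ± 0.12 (adjusted p = 0.0052), and NPAS2, a partner of ARNTL, stood at -1.18, -1.08, -0.78 and -1.30 and fell by 1.09 ± 0.11 (adjusted p = 0.00104). CSNK1E was the other rise (1.57 ± 0.22) and BHLHE41 the other fall (-0.35 ± 0.07), with adjusted p of 0.0836, 0.0628 and 0.0708 without replicates 1, 2 and 4 and 0.0528 with the 6 h arrays alone for BHLHE41. ARNTL (-0.14 ± 0.11, adjusted p = 0.49) and PER1 (0.16 ± 0.08, adjusted p = 0.224) did not pass. Of 43 enzymes that modify histones or DNA 3 rose and 5 fell, and KDM3A, a histone demethylase, rose by 0.40 ± 0.06 (adjusted p = 0.00361). The other rises were HDAC8 and KDM5C and the falls TET2, SIRT3, CREBBP, EZH2 and EED, of which CREBBP and EZH2 were named after their values were seen and SIRT3 fell for 1 of 3 probes. HDAC8 was lost without replicate 2, KDM5C without replicates 1, 2 and 4 and EED without replicates 1 and 2. That list had 1 rise without replicate 2, and 2 and 3 falls without replicates 1 and 2.

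Markers of the cells that could be in the scrapings moved with these changes, and their part in the results was not tested. Of 15 granulosa markers 2, MRO and CDH2, rose and 8 fell, with a median of -0.62. Their summed level was 135000 to 152000 before LH and 117000 to 138000 after it, in intensity units after normalisation. Most of this sum came from INHA, INHBA and SERPINE2, with mean log2 levels of 15.29, 15.30 and 15.31 before LH. These did not pass the test and were saturated before LH on 2, 2 and 3 arrays, so the sum says little of the other markers. Of 11 theca markers 1 rose and 5 fell, and their summed level was 69100 to 90600 before LH and 39300 to 63700 after it. Both RNAs were on each array, so these ranges are no paired comparison. The brightest markers weigh most in such a sum, and the part of each theca marker in it was not tested. COLEC11 (-1.37 ± 0.03) and ANPEP (-1.26 ± 0.16), both on the theca list, fell with TCF21, and the other falls were those of NR2F2 and HHIP, named after their values were seen. The theca falls were 3, 4, 4 and 3 without replicates 1 to 4, and the 1 rise was that of CYP17A1 (adjusted p = 0.121, 0.0899 and 0.103 without replicates 2, 3 and 4 and 0.0539 without the dye term).

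The other marker lists changed at few genes. Leukocyte markers gave 5 rises of 20 and 0 falls, with a summed level of 4050 to 6300 before and 4870 to 6380 after LH, and CD68, a macrophage protein, rose by 0.40 ± 0.07, as did CD163 (adjusted p from 0.0526 to 0.0924 in 10 settings that ended its call), S100A9 (lost without replicates 1 and 2), CD14 and AIF1, the last 2 named after their values were seen. Without replicates 1 to 4 of 6 h 1, 1, 3 and 2 of them rose, and without replicate 3 of 22 h 3 did. Endothelial markers had 2 rises, ENG and ERG (0, 1 and 5 rises without replicates 1, 2 and 3), and 1 fall, CLDN5, of 13 and summed to 16100 to 29900 before and 17500 to 32200 after LH. Stromal markers had 1 rise of 13, FBLN1 (0.89 ± 0.07), and 0 falls, against 1 and 3 without replicates 2 and 4 of 22 h, and summed to 148000 to 177000 before and 108000 to 163000 after. Epithelial markers had 2 rises, KRT8 and KRT18, and 1 fall, KRT19, of 9 (falls were 0, 0, 2 and 0 without replicates 1 to 4 of 6 h and 0 without replicate 3 of 22 h), and summed to 2160 to 2760 before and 2690 to 5110 after. Oocyte markers had 1 rise of 12, DAZL (0.46 ± 0.06), or 2 without replicate 1 of 22 h, with 1860 to 2010 before and 1980 to 2170 after, and erythrocyte markers 1 fall, AHSP, of 6 (0 without replicates 1, 2 and 4 of 6 h and without replicate 2 of 22 h), with 895 to 1090 before and 912 to 1000 after.

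Whether the response at 6 h had the same size at 22 h was asked of the difference between the changes, tested in the same fit. Both changes are taken against pre-LH RNA, and the array titles give all 6 h arrays 1 data number and all 22 h arrays another, so that what this number stands for and time cannot be told apart in this comparison. Of the 14138 genes 2139 (15.1%) differed, 1091 higher (7.72%) and 1048 lower (7.41%) at 22 h, and among the 594 genes that had changed at least 2-fold at 6 h 321 (54%) did; these were chosen by their 6 h values, which enter the difference, so the share is a description. At 22 h itself 2878 genes (20.4%) had changed against pre-LH RNA. Of the 339 rises of at least 2-fold, 201 were lower at 22 h, 15 were higher still and 123 did not pass. Of the 255 falls, 97 were higher at 22 h, 8 were lower still and 150 did not pass. The medians of the rises were 1.40 at 6 h and 0.46 at 22 h, and those of the falls -1.22 and -0.74. The number that differed was 1328 and 1187 without replicates 1 and 2 of 6 h, 1291 without replicate 3 of 22 h, and 22 with median centring.

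Among the 30 largest changes 18 differed between the times. PGR stood at -0.44 ± 0.04 at 22 h, a difference of -3.75 ± 0.05 (adjusted p = 9.57e-07), and GPAT3 at 0.75 ± 0.10 (-4.15 ± 0.14, adjusted p = 4.48e-05). TFPI2 (-2.83 ± 0.31), FBP1 (-2.75 ± 0.41), BAMBI (-2.72 ± 0.09) and SLC39A8 (-2.65 ± 0.22) were also lower at 22 h by more than 2 on the log2 scale. RGS2 was the 1 rise of the 30 that was higher at 22 h, at 4.59 ± 0.14 (1.13 ± 0.20, adjusted p = 0.0142). Among the falls RBM47 stood at 1.10 ± 0.14 at 22 h (2.86 ± 0.19, adjusted p = 0.000447), RALYL at -0.01 ± 0.09 and GATM at 0.13 ± 0.13. TRIB2 (-2.95 ± 0.06), HPGD (-2.97 ± 0.22) and PTX3 (4.92 ± 0.16) were among the 12 whose difference did not pass, with adjusted p of 0.697, 0.894 and 0.0725, which does not show that they were equal.

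**Figure D5:**
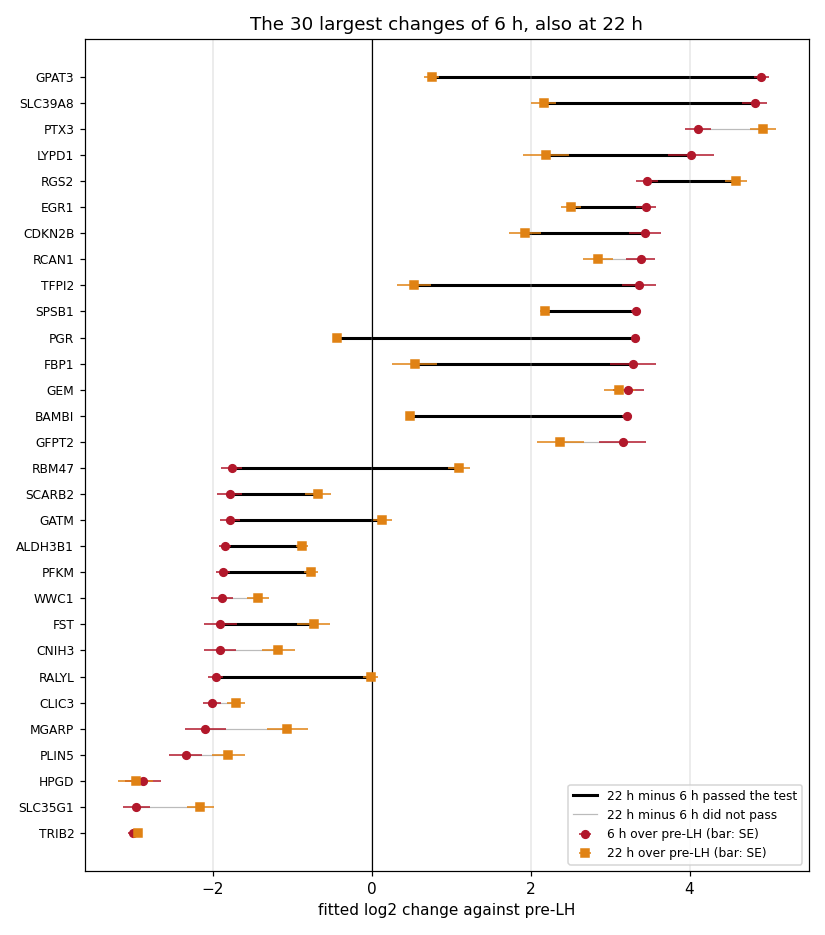
Fitted log2 changes against pre-LH RNA (x axis, bars show the SE) of the 15 largest rises and 15 largest falls of 6 h (y axis), with circles for 6 h, squares for 22 h and a black line where the difference between the times passed the test. PGR and BAMBI lie nearer to 0 at 22 h than at 6 h, RBM47 lies on the other side, and the symbols of TRIB2 and HPGD overlap.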

How the data were processed

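Each of the 8 two-colour arrays carried amplified antisense RNA of post-LH cells in one dye and of pre-LH cells in the other, per the labels. The deposited scanner files give raw spot intensity (mean and median) and local background intensity for each dye, per the file headers, and the dye was taken from the wavelength; the scanner software is not given in the sources used here. The authors' deposited processed table holds log2 ratios of the same arrays, whose normalisation is not stated; its direction and scale were found by setting each column against that array's scanner ratios (r from 0.822 to 0.906, slopes 1.07 to 1.26, column medians -0.016 to 0.00502), and it was used as an alternative.

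Mean intensities of 45212 spots (1418 controls) were background-corrected with normexp (offset 50) and normalised by loess within each array, controls having weight 0, by limma 3.58.1 (R 4.3.3). Ratios were turned to post-LH over pre-LH. A probe was above background in a dye where its intensity passed the 95th percentile of 153 negative control spots, and was tested where the share of arrays passing was 0.5 or more in 1 RNA group or more. The fit (lmFit, eBayes) held all 8 arrays, with terms for 6 h, 22 h and dye, so that the spread was shared between the times (5 residual degrees of freedom, 1.94 prior). Adjusted p (Benjamini-Hochberg) ran over 38453 tested probes, threshold 0.05. Tables given with the series named 21790 probes, 1524 of them under an updated symbol, and the other 22004 were left out after the fit. A gene took the value of its brightest tested probe; of 3582 genes with several probes 14 had probes called in opposite directions. Bounds on folds ("at least") used channel levels after loess and Aquantile scaling, and for the genes given they equal the fitted folds. No sequence of the probes or genes was used here.

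Members and lists were chosen with earlier results of these data known. FST was moved between lists and TCF3 and TCF4 were taken out of the WNT list after values were seen, because their placement was wrong. Genes were named by a rule: the 15 largest rises and 15 largest falls among genes above background in both RNAs on all 4 arrays and of 1 sign; up to 5 each way that were above background in only 1 RNA; and, in each list, preset key genes with the 3 largest rises and 3 largest falls. Other genes are marked as named after their values were seen. Groups followed the time labels. Alternatives covered the dye term, background, normalisation, filter, probe choice, each array left out and the replicate number as a block. The labels number biological replicates 1 to 4 at each time but do not say that a number joins the times. The data could not decide it, and the number was not used as a block in the fit reported. Whether the same pre-LH RNA was used for both times is not given in the sources used here. The code was tested on simulated data.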

Additional observations from a re-analysis of the deposited data

Results flagged for a closer look

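Among 252 named genes 17 had 1 array of 6 h whose gap to the nearest of the others as a share of the range of the 4 exceeded Dixon's 95% critical value; about 1 gene in 20 would be picked in this way by chance. The array apart was replicate 2 for 2 genes, replicate 3 for 7 and replicate 4 for 8, and never replicate 1. Replicate 2 gave -2.30 for SLC35G1 and -0.79 for FSHR. Replicate 3 gave 2.83 for LYPD1, -0.14 for SLC14A1, 0.93 for NFKBIA, 1.39 for MT2A, -1.37 for CAT, 0.75 for RRP12 and 0.50 for STX11. Replicate 4 gave -1.12 for CNIH3, -0.93 for F2R, 1.57 for NR4A1, 0.23 for SOCS3, -0.76 for SERPINA5, 2.14 for FGFR1, -0.14 for PFKFB3 and -0.58 for ARNTL. The post-LH RNA was in Cy3 on replicates 3 and 4, and the part of the dye in these values was not tested.

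For 18 of the 30 largest changes the change at 22 h differed from that at 6 h by the test of the difference in the same fit. The log2 difference, 22 h minus 6 h, was negative for 10 rises: -4.15 for GPAT3, -3.75 for PGR, -2.83 for TFPI2, -2.75 for FBP1, -2.72 for BAMBI, -2.65 for SLC39A8, -1.82 for LYPD1, -1.51 for CDKN2B, -1.15 for SPSB1 and -0.94 for EGR1. It was 1.13 for the rise of RGS2. It was positive for 7 falls: 2.86 for RBM47, 1.95 for RALYL, 1.92 for GATM, 1.17 for FST, 1.11 for PFKM, 1.11 for SCARB2 and 0.97 for ALDH3B1. The titles give the arrays of each time a data number of their own, which cannot be told apart from time in these differences.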

How the results depend on the processing

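Of the 3437 genes changed at 6 h, 85 passed when each array was centred on its median in place of loess, and no gene passed in the opposite direction; the changes of the 3437 genes had a slope of 0.997 on those after loess and the same sign in 100%. The other settings gave 3679 (6 h arrays alone), 2879 (no dye term), 3584 (no background correction), 3611 (offset 10), 3472 (authors' deposited values), 3363 (no filter on dim probes), 3483 (stricter filter), 3436 (median over probes) and 3698 (background from negative controls, chosen after seeing the data). Leaving out 1 array gave 1933 to 3765. The 594 genes changed at least 2-fold became 81 with median centring and 439 to 763 otherwise. The 2139 that differed between the times became 22 with median centring and 1187 to 2052 without 1 array. No result changed sign past the threshold. Of 252 named genes 189 lost their call with median centring, 54, 52, 18 and 31 without replicates 1 to 4 of 6 h, and at most 13 in each other setting. The number of arrays limits the precision, since 1 array decided many calls.

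The replicate number as a block, which also takes in the dye, gave 3359 changed genes and ended the call of 11 named genes, VCAN (adjusted p = 0.0703), INHBB (0.0921), SQLE (0.0538), SLC39A14 (0.0506), GATA4 (0.0644), CD163 (0.0854), HSPB3 (0.0604), RORB (0.0943), FBXO48 (0.0629), SLC14A1 (0.0517) and KCNK18 (0.0767). Deviations of same-numbered samples of 6 h and 22 h correlated with r = 0.328, 0.526, 0.414 and 0.224, but same numbers share the dye orientation, and after the dye effect was taken out r was -0.103, 0.179, 0.108 and -0.296. No 6 h array correlated best with the 22 h array of its own number, and every best match had the opposite dye orientation. The dye effect taken out was common to both times, so a dye effect particular to a time lowers r between same numbers. This comparison therefore cannot decide whether a number joins the times.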
